A study of Mus musculus with 21 samples.

Results

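Transcripts of heat shock chaperones were measured by bulk RNA sequencing in mouse dorsal root ganglia, which hold the cell bodies of sensory neurons beside the spinal cord. The 10 genes were listed by name (Hspa1a, Hspa1b, Hspa8, Hsph1, Dnaja1, Dnajb1, Hsp90aa1, Hspb1, Hspd1 and Hspe1), not by a cut on any measured value, though with earlier results of these data known. All 10 had rows among the 24381 genes shared by both count tables. The study sequenced 21 libraries from animals with a floxed Tmem45b gene. Some of them also carried Mrgprd-cre (Tmem45b-flox::Mrgprd-cre, called cKO below), and the rest carried the floxed gene alone (Tmem45b-flox, called flox below). These genotypes are those of the titles and column names, whereas the genotype field of the labels names Mrgprd-cre for all 21 libraries, a conflict that bears on every cKO against flox value. Groups of both genotypes were either put through the CFA model, in which complete Freund's adjuvant provokes inflammation, or carry no treatment label. The untreated libraries come under 2 kinds of column name, one ending in LDRG and one starting with con or ko and holding a code such as FC or ML, and were therefore kept as separate name sets. This gave 4 cKO CFA, 4 flox CFA, 4 cKO con/ko, 3 flox con/ko, 3 cKO LDRG and 3 flox LDRG libraries. Mrgprd-cre acts in the Mrgprd lineage of nonpeptidergic nociceptors, so other cells of the ganglion keep the floxed gene, and the part of Tmem45b that was floxed, the age of the animals, the number of animals behind a library, the time after CFA and the site of its injection are not given in the sources used here. Whether libraries came from separate animals is not stated either, so that p-values measure the spread between these libraries.

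Libraries held 53364389 to 72502294 counts. Tmem45b, the targeted gene, had 59.9 to 89.1 CPM (counts scaled to a common library size of 1000000) in the 7 untreated cKO libraries, against 124 to 179 CPM in the 6 untreated flox libraries. In CFA ganglia it had 61.8 to 108 CPM in the 4 libraries labelled cKO and 65.9 to 136 CPM in the 4 labelled flox, so the CFA genotype labels were not separated by their target and are given below as labels. Xist, which is expressed from the inactive X chromosome, had at least 283 CPM in each of the 8 CFA libraries and at most 0.330 CPM in each of the 6 LDRG libraries. In the con/ko set it was high in the 4 libraries coded F and at 0.206 CPM or less in the 3 coded M, so sex moved with CFA against LDRG and cannot be told apart from it. The 5 sensory neuron markers summed to 7709 to 12739 CPM in the 21 libraries. In whole ganglia, fewer cells of a type and less RNA per cell cannot be told apart.

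Molecular chaperones bind unfolded stretches of other proteins and help them fold, stay soluble or be refolded after stress. Hsp70 proteins do this in cycles of ATP hydrolysis that are started by J-domain (Hsp40) partners and ended by nucleotide exchange factors. Hsp90 acts later, on near-native clients such as kinases and steroid receptors, and small heat shock proteins hold unfolded proteins without ATP. Under heat or proteotoxic stress the transcription factor Hsf1 forms trimers and binds heat shock elements, inverted repeats of a short unit, in the promoters of many of these genes. Sensory neurons have long axons and express constitutive members of the family at high level, and Hspb1 is known in them for its link to inherited neuropathy in humans.

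The members differ in role and in place. Hspa1a (chr17:34969190-34972156) and Hspa1b (chr17:34956436-34959238) are neighbouring minus-strand genes for the heat-inducible Hsp70, Hspa8 (chr9:40800984-40810087, plus strand) encodes the constitutive Hsc70, and Hsph1 (chr5:149614287-149636376, minus strand) encodes Hsp110, a nucleotide exchange factor for Hsp70. Dnaja1 (chr4:40722150-40737149, plus strand) and Dnajb1 (chr8:83608193-83612653, plus strand) encode Hsp40 partners. Hsp90aa1 (chr12:110690605-110702728, minus strand) encodes the inducible cytosolic Hsp90, and Hspb1 (chr5:135887919-135889563, plus strand) a small heat shock protein. Hspd1 (chr1:55077835-55088243, minus strand) and Hspe1 (chr1:55088132-55091307, plus strand) encode the Hsp60 and Hsp10 of the mitochondrial matrix, so the description cytosolic holds for 8 of the 10. Positions are those of the GENCODE annotation on mm10, in which all 10 are protein-coding, and Hspd1 and Hspe1 run head to head with 112 bases in common.

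The windows around the start sites are shown because all but one of the members with an entry carry paired heat shock element units, and because they show how alike the Hspa1a and Hspa1b genes are. RefSeq windows on GRCm38.p6, the patched release of the same build, run from 250 bases before to 50 bases after the annotated start, and 8 of the 10 genes had an entry (Hspa8 and Hsp90aa1 had none). Where a gene had several entries, one that holds a match is shown. They are given 5′ to 3′ in the sense of the gene, with paired units, GAANNTTC or TTCNNGAA, in capitals. Each of these motifs is its own reverse complement, so a match on one strand is a match on both. Hspa1a is from chr17:34972107-34972406 (minus strand), Hspa1b from chr17:34959189-34959488 (minus strand), Hsph1 from chr5:149636287-149636586 (minus strand), Dnaja1 from chr4:40722218-40722517 (plus strand) and Hspe1 from chr1:55087898-55088197 (plus strand).
Hspa1a: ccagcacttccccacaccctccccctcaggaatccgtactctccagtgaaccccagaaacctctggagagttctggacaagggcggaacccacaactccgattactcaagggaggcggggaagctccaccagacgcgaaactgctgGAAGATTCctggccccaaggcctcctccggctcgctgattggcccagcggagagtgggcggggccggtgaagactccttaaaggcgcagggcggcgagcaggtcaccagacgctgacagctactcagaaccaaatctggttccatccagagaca
Hspa1b: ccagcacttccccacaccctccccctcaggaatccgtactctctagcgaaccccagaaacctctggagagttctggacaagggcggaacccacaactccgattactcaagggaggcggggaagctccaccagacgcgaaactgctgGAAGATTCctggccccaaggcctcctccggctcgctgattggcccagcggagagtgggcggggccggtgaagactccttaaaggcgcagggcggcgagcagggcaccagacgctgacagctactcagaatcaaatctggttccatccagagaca
Hsph1: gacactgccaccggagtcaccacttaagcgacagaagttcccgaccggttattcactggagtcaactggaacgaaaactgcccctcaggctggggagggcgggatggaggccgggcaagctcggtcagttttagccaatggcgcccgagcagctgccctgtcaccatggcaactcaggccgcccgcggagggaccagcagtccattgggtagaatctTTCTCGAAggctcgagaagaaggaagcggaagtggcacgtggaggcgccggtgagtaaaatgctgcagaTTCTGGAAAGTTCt
Dnaja1: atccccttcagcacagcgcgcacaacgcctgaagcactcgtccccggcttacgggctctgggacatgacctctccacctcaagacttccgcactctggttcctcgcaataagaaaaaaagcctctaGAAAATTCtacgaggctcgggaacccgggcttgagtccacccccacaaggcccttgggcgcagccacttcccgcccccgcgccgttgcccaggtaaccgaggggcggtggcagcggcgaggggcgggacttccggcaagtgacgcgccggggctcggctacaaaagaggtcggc
Hspe1: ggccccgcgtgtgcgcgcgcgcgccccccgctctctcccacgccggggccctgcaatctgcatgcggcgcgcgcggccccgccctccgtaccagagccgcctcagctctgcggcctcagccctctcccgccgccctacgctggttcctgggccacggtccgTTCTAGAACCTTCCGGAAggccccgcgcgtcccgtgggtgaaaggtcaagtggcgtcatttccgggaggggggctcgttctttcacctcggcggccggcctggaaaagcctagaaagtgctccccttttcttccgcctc

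The Hspa1a and Hspa1b windows had the same base at 296 of 300 positions, with the paired unit starting 104 bases before the start site in both. Most of the Hspe1 window is also an Hspd1 window read from the other strand, since 285 of its bases are the reverse complement of the Hspd1 window at chr1:55087883-55088182. The other Hspd1 window, at chr1:55088194-55088493, holds the start of the gene as positioned above and has no match. The 3 paired units of the Hspe1 window overlap in a continuous run. This run began 89 bases before the Hspe1 start and 144 bases before the Hspd1 start of the window at chr1:55087883-55088182. In the window shown, Hsph1 had a paired unit 33 bases before its start and 2 overlapping ones after it. Dnaja1 had 1 at 124 bases before its start in the window shown and none in its other windows. Hspb1 had 2, at 117 and 97 bases before its start. No match lay in the Dnajb1 windows. Paired units were found for 7 of 8 members with an entry, against 17% of all 27025 genes in the table. Runs of 3 units, GAANNTTCNNGAA or TTCNNGAANNTTC, were found for 3 of 8 members (Hsph1, Hspd1 and Hspe1), against 0.662% of all genes. The Hspd1 and Hspe1 matches are the same run read from both strands, and the Hspa1a and Hspa1b windows are near-identical. Both counts of members therefore include matches that are not independent. A match is a description of letters, not of binding.

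**Figure D1:**
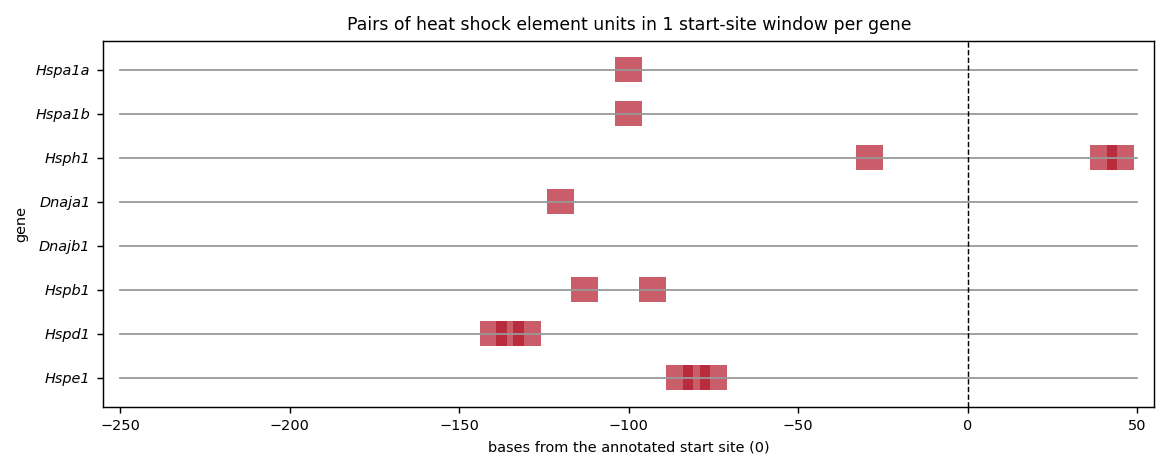
Paired heat shock element units (boxes, darker where they overlap) in 1 start-site window of each of the 8 genes with an entry, drawn by distance in bases from the annotated start site (dashed line). Units sit between 144 bases before and 50 bases after the start in 7 genes, Hspd1 and Hspe1 share a run of 3, and Dnajb1 has none in its window. For Hspd1 and Dnaja1 a window with a match is drawn, and their other windows have none.

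Most of these genes have near-identical relatives, which bears on every value that follows. Of all stretches of 150 bases (the length of a read) in their transcripts, 46% for Hspa1a, 40.5% for Hspa1b, 39.1% for Hspb1, 28.5% for Hsp90aa1, 23% for Hspa8, 16.1% for Hspd1, 13.4% for Dnaja1 and 6.64% for Hspe1 also occurred in another annotated gene, and for Hsph1 and Dnajb1 none did. Hspa1a and Hspa1b shared 38.1% and 40.5% of theirs with each other, so their split is uncertain and their sum is given beside them. Dnaja1 also overlaps Smu1, on the opposite strand, by 608 bases, and Hspa1a overlaps Gm20481, on the opposite strand, by 2225 bases. The tables also hold rows for Hsp25-ps1, a pseudogene copy of Hspb1, and Hspd1-ps3, a pseudogene copy of Hspd1. These 2 rows were singled out after their values were seen. Over the 21 libraries, Hsp25-ps1 had 1.62 times the counts of Hspb1, and Hspd1-ps3 had 3.26 times those of Hspd1. Members also share stretches with further annotated genes, Hspb1 with the protein-coding Gm9817 (27.3%) and Hsp90aa1 with Gm12346 (23.6%). Hspa8 does so with the long noncoding RNA gene Gm26825 (20.3%) and with Gm15459 (20%), and Dnaja1 with Gm15542 (6.83%). Counts of these were not examined, and their part in the values of Hspb1, Hsp90aa1, Hspa8 and Dnaja1 was not tested. The counting tool, its use of strand and its treatment of reads with several places are not given in the sources used here, and the share of reads in the copies that came from the members was not tested.

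In level per length of transcript, averaged over the 21 libraries, Hsp90aa1 stood at 175 CPM per kilobase and Hspa8 at 140 CPM per kilobase. Hsph1 followed at 53.3, Hspb1 at 48.5, Hspd1 at 31.9, Dnaja1 at 28.9 and Dnajb1 at 19.4 CPM per kilobase. The heat-inducible Hsp70 genes were far lower, with 5.58 CPM per kilobase for Hspa1b and 3.79 for Hspa1a, and Hspe1 had 3.41. Neighbours in this order mostly overlapped in their libraries: Hsp90aa1 ranged from 121 to 241 and Hspa8 from 117 to 156 CPM per kilobase, Hsph1 from 39.8 to 62.3 and Hspb1 from 35.4 to 63.8, Hspd1 from 25.4 to 38.8 and Dnaja1 from 20.5 to 38.9. The order is that of the pooled means: in con/ko libraries Hspe1 averaged 5.44 CPM per kilobase, above the 3.76 of Hspa1a, and Hspb1 averaged 50.9, above the 48.0 of Hsph1. Gaps without overlap lay below Hspa8, whose lowest library exceeded the highest of Hspb1 and Hsph1, and between Dnajb1, with 17.6 to 21.9 CPM per kilobase, and the Hsp70 pair, of which the highest library had 7.78. Counts in the copies named above are not part of these levels of Hspb1 and Hspd1.

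Spread within groups was smallest for Hspa8 and largest for Hspa1b. The mean coefficient of variation within groups was 3.44% for Hspa8, 5.50% for Hsph1, 5.57% for Hsp90aa1, 5.62% for Dnajb1, 7.78% for Hspd1, 8.70% for Dnaja1, 11.2% for Hspb1, 13.1% for Hspe1, 13.5% for Hspa1a and 15.02% for Hspa1b. The median over 11763 genes with a mean of at least 5 CPM was 7.84%. Hspa8, Hsph1, Hsp90aa1, Dnajb1 and Hspd1 lay below that median, and Dnaja1, Hspb1, Hspe1, Hspa1a and Hspa1b lay above it. The widest spreads were those of Hspa1b, Hspa1a and Hspe1, the members with the lowest CPM, and the median was not matched for level.

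**Figure D2:**
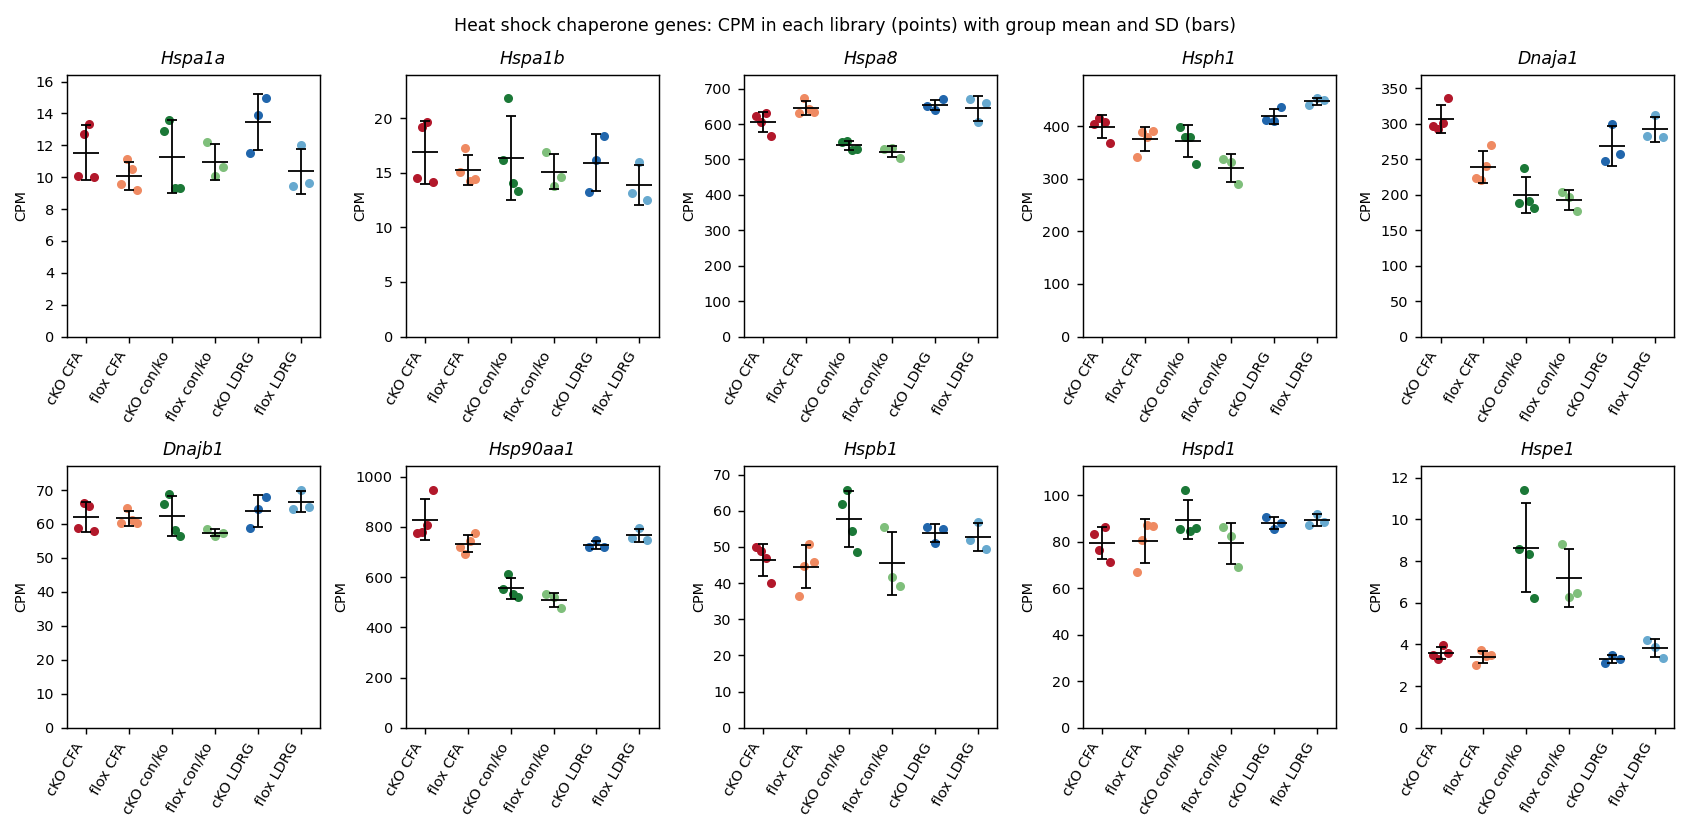
CPM of the 10 chaperone genes (vertical axes, from 0) in each of the 21 libraries, in the order cKO CFA, flox CFA, cKO con/ko, flox con/ko, cKO LDRG and flox LDRG, with the group mean (long bar) and SD (error bar). Hsp90aa1, Dnaja1 and Hspa8 are lowest in the con/ko groups, where Hspe1 is highest, while Hspa1a (9.17 to 14.9 CPM) and Hspa1b (12.5 to 21.8 CPM) overlap between the CFA, con/ko and LDRG sets.

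The first comparison asks whether loss of Tmem45b in the Mrgprd lineage changed chaperone transcripts in untreated ganglia. None of the 10 genes passed the threshold (edgeR's quasi-likelihood test with name set as a covariate, adjusted p under 0.05 over 16706 genes), and over all genes 0% were called higher and 0.00599% lower in cKO, a single gene, Tmem45b itself. The estimates ran from a log2 difference of -0.04 for Dnaja1 to 0.19 for Hspa1a, with a median of 0.05 against -0.00 over all genes tested, and adjusted p from 0.776 to 0.986. Hspa8 had 550.3, 552, 527 and 529.9 CPM in cKO con/ko libraries, against 529, 533 and 505 CPM in flox con/ko libraries. In the LDRG set it had 652, 639.7 and 669.7 CPM in cKO libraries, against 671, 605 and 658 CPM in flox libraries. The genotypes overlapped in both sets, and the 95% interval of the log2 difference was -0.04 to 0.10. Hsph1 had 411, 410.4 and 435 CPM in cKO LDRG libraries, against 439, 453 and 449 CPM in flox LDRG libraries, without overlap. In the con/ko set it had 399, 379.7, 379.4 and 328 CPM in cKO libraries, against 338, 332 and 289 CPM in flox libraries. Its estimate was thus below 0 within LDRG (log2 difference -0.10, edgeR adjusted p = 0.991) and above 0 within con/ko (0.21, adjusted p = 0.757). That of Hspe1 also changed sign, at -0.22 in the LDRG set and 0.26 in the con/ko set, and that of Hspa1a was 0.37 and 0.04, with adjusted p of 0.902 or more for both genes. The same change of sign was seen for Dnaja1 (-0.12 and 0.04), Dnajb1 (-0.06 and 0.12), Hsp90aa1 (-0.07 and 0.12) and Hspd1 (-0.02 and 0.17). Hspa1b, Hspa8 and Hspb1 were above 0 in both sets, with Hspb1 at 0.03 and 0.34. No member passed in either set. Intervals were wider for the low genes, from -0.08 to 0.46 for Hspa1a and from -0.29 to 0.36 for Hspe1.

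Among CFA ganglia, Dnaja1 showed the largest genotype difference of the 10. It had 297, 293, 301 and 336 CPM in CFA libraries labelled cKO, against 224, 221, 241 and 270.0 CPM in CFA libraries labelled flox. The labels did not overlap, and the log2 difference was 0.37 (SE 0.08, 95% interval 0.20 to 0.54, 1.29-fold). It nevertheless missed the threshold of edgeR's quasi-likelihood test over 16116 genes, with an adjusted p of 0.938, while DESeq2 gave an adjusted p of 0.0221; over the 16 alternatives it ran from 0.0221 to 1. Hsp90aa1 had 775, 780.4, 809 and 948 CPM in CFA libraries labelled cKO, against 722, 692, 745 and 775 CPM in those labelled flox, a log2 difference of 0.18 (SE 0.08, adjusted p = 0.938). The lowest library labelled cKO was level with the highest labelled flox, and replicate 4 was the highest of each label. Of 16116 genes, 0% were called higher and 0% lower by edgeR, where 799 had an unadjusted p under 0.05, and DESeq2 called 18, of which 1 was a member. The remaining 8 members had log2 differences between -0.08 (Hspa8) and 0.20 (Hspa1a).

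The rows of Hspa1a and Hspa1b moved as a pair among these libraries, but not by label. They share 38.1% and 40.5% of their read-length stretches, and the part of this in their moving together was not tested. Their sum was 24.6, 31.8, 32.9 and 24.2 CPM in CFA libraries labelled cKO, against 24.6, 28.3, 24.7 and 23.6 CPM in those labelled flox. Replicates 2 and 3 of the cKO label were the highest, and the other 2 were level with the flox libraries. The log2 difference of the sum was 0.17 (SE 0.12, adjusted p = 0.938).

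CFA was compared with the untreated LDRG libraries, which share its table, within each genotype. Hsph1, the nucleotide exchange factor of Hsp70, was the single member called in flox ganglia. It had 342, 389, 379 and 390.1 CPM in flox CFA libraries, against 439, 453 and 449 CPM in flox LDRG libraries. All CFA values lay below all LDRG values, with a log2 difference of -0.25 (SE 0.05, edgeR adjusted p = 0.0139). It lost its call without replicate 2 of flox LDRG (adjusted p = 0.0633) and with only these 2 groups in the fit (0.0609), the highest of its 16 alternatives being 0.0633 and the lowest 0.000263. Over 16605 genes, 3.77% were called higher and 3.05% lower, so 0 and 1 of 10 members is near the background.

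Dnaja1 had 224, 221, 241 and 270.0 CPM in flox CFA libraries, against 283, 312 and 281 CPM in flox LDRG libraries. The groups did not overlap, and the log2 difference of -0.29 (SE 0.08) fell short of the threshold (edgeR adjusted p = 0.0538). It passed without replicate 4 of flox CFA (adjusted p = 0.0245), with DESeq2 (0.0130) and with a replicate block (0.0195), in a range of 0.0130 to 0.218 over 16 alternatives. The other members had adjusted p of 0.162 or more, and the estimate was below 0 for 9 of the 10 genes, with a median of -0.13 against -0.00 over all genes. Beside these values, all 5 red cell and all 3 neutrophil markers were called higher in flox CFA ganglia, as were 2 of 3 macrophage and 2 of 3 fibroblast markers. Called lower were 2 of 3 satellite glia markers (median log2 difference -0.37), 1 of 3 Schwann cell markers (-0.42) and 1 of 5 sensory neuron markers (-0.19). Their part in the result was not tested.

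In cKO ganglia no member passed. Dnaja1 had 297, 293, 301 and 336 CPM in cKO CFA libraries, against 247, 299.8 and 258 CPM in cKO LDRG libraries, a log2 difference of 0.19 (SE 0.08, edgeR adjusted p = 0.215). Its sign was the opposite of that in flox, with replicate 2 of cKO LDRG inside the CFA range. Hsp90aa1 had 775, 780.4, 809 and 948 CPM in cKO CFA libraries, all above the 719, 747 and 722 CPM of cKO LDRG libraries, and its log2 difference of 0.18 (SE 0.07) had an adjusted p of 0.160. Over all genes 1.7% were called higher and 0.909% lower in cKO CFA ganglia. The genotypes' values of CFA against LDRG, a contrast that sex moved with, were compared by edgeR as an interaction in the same 14 libraries. The difference was 0.48 for Dnaja1 on the log2 scale (SE 0.12, 95% interval 0.23 to 0.74), with an unadjusted p of 0.00124 and an adjusted p of 0.789. No member passed that test, nor did any of 16605 genes (0% higher and 0% lower, against 840 with an unadjusted p under 0.05 and 25 called by DESeq2). Over 22 alternatives the adjusted p for Dnaja1 was 0.0541 or more.

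**Figure D3:**
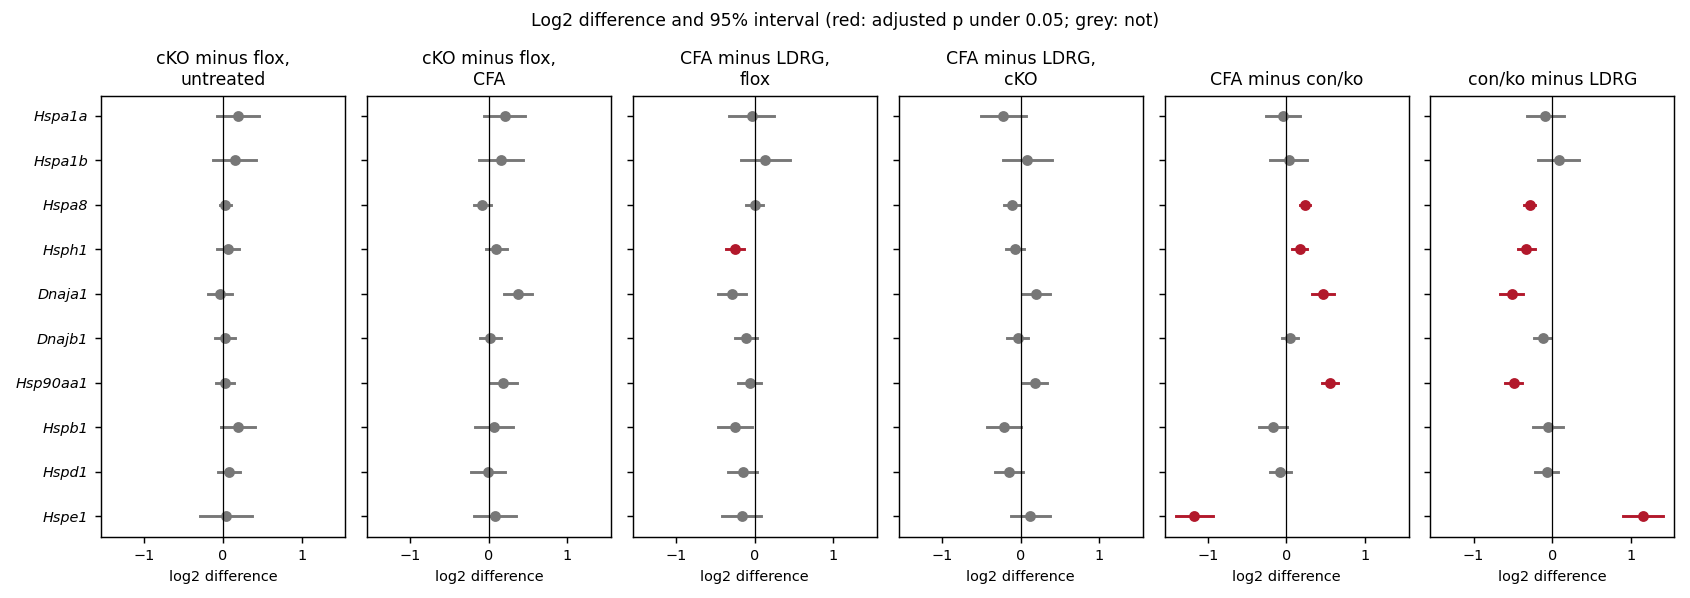
Log2 difference (point) and unadjusted 95% interval (line) for each gene in 6 comparisons, red where the adjusted p of edgeR's quasi-likelihood test was under 0.05. In both genotype comparisons all points are grey, and the contrasts with the con/ko set hold 5 red genes each, with Hspe1 on the opposite side from the other 4.

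Most calls among the members fell in the contrasts with the con/ko set. Hsp90aa1, Dnaja1, Hspa8 and Hsph1 were all higher in CFA than in con/ko ganglia and lower in con/ko than in LDRG ganglia, both sets being untreated, while Hspe1 did the reverse. The con/ko libraries enter both contrasts, and come from another table than the other libraries, so that the set, the table and anything else that differed between the preparations cannot be told apart.

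Hsp90aa1, the inducible Hsp90, had 555, 612, 533 and 519.7 CPM in cKO con/ko libraries and 532, 519 and 476 CPM in flox con/ko libraries. In the LDRG set it had 719, 747 and 722 CPM in cKO libraries and 755, 797 and 747 CPM in flox libraries. Every con/ko library lay below every LDRG library, and the log2 difference, con/ko minus LDRG, averaged over genotypes, was -0.49 (SE 0.05, edgeR adjusted p = 7.21e-07). CFA ganglia, with 692 to 948 CPM in 8 libraries, exceeded con/ko by 0.55 (SE 0.05, adjusted p = 1.15e-07).

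Dnaja1, an Hsp40, had 188, 237, 191 and 181 CPM in cKO con/ko libraries and 204, 196 and 177 CPM in flox con/ko libraries. It had 247, 299.8 and 258 CPM in cKO LDRG libraries and 283, 312 and 281 CPM in flox LDRG libraries. The sets did not overlap, and con/ko was lower by a log2 difference of -0.52 (SE 0.07, adjusted p = 1.003e-05). Against con/ko, CFA ganglia were higher by 0.47 (SE 0.07, adjusted p = 1.26e-05), with the lowest flox CFA libraries below replicate 5 of cKO con/ko.

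Hspa8, the constitutive Hsp70 whose values are given above, had 505 to 552 CPM in 7 con/ko libraries and 605 to 671 CPM in 6 LDRG libraries, again without overlap. The log2 difference was -0.29 (SE 0.03, adjusted p = 2.74e-06), and CFA exceeded con/ko by 0.24 (SE 0.03, adjusted p = 1.03e-05). Hsph1 had 289 to 399 CPM in con/ko libraries and 410.4 to 453 CPM in LDRG libraries, a log2 difference of -0.33 (SE 0.05, adjusted p = 3.93e-05). Within cKO alone its con/ko to LDRG difference was -0.17 and no longer called (adjusted p = 0.0612, the highest of 24 alternatives, the lowest being 4.82e-10). Its CFA difference from con/ko was 0.17 (SE 0.05, adjusted p = 0.00668), and was lost within cKO (0.10, adjusted p = 0.226) and against the con/ko libraries coded F, which match the CFA libraries in Xist (0.10, adjusted p = 0.0768).

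Hspe1, the Hsp10 of mitochondria, had 8.59, 11.4, 8.32 and 6.25 CPM in cKO con/ko libraries and 8.80, 6.30 and 6.49 CPM in flox con/ko libraries. In LDRG libraries it had 3.09, 3.49 and 3.30 CPM in cKO and 4.23, 3.87 and 3.36 CPM in flox. These rest on 420 to 763 raw counts in con/ko and 200 to 298 in LDRG libraries. Every con/ko library was above every LDRG library, by a log2 difference of 1.15 (SE 0.12, 2.22-fold, adjusted p = 8.78e-07). The CFA libraries, with 3.01 to 3.99 CPM, lay below con/ko by a log2 difference of -1.17 (SE 0.11, adjusted p = 2.87e-07).

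Its promoter neighbour and partner Hspd1 had 69.4 to 102 CPM in con/ko libraries and 85.6 to 92.2 CPM in LDRG libraries, a log2 difference of -0.07 (SE 0.07, adjusted p = 0.404). Hspb1, at 39.3 to 65.8 CPM in con/ko and 49.5 to 57.0 CPM in LDRG libraries, gave -0.06 (SE 0.09, adjusted p = 0.640). Dnajb1 gave -0.12 (SE 0.05, adjusted p = 0.0597) and passed in 8 of 24 alternatives, among them those without replicate 1 of cKO LDRG or without replicate 4 or 5 of cKO con/ko (0.0187 to 0.0468; range over all 24, 0.0142 to 0.761). The Hspa1a and Hspa1b sum was 22.7 to 35.4 CPM in con/ko libraries, 22.2 to 33.3 CPM in LDRG libraries and 23.6 to 32.9 CPM in CFA libraries. The sets overlapped throughout, and the 95% interval of the log2 difference of the sum, con/ko minus LDRG, was -0.23 to 0.25.

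Counted together, 1 member was called higher and 4 lower in con/ko than in LDRG ganglia, against 25.7% of 16928 genes called higher and 23% called lower. In CFA against con/ko, 4 were called higher and 1 lower, against 24.1% and 28% of all genes. Calls were that common over all genes, and 5 of 10 members called in either direction is near the background. The 4 cytosolic genes and Hspe1 kept their call and direction against con/ko libraries coded L and, in con/ko against LDRG, with con/ko libraries coded M only, which match LDRG in Xist. There the log2 differences were -0.58 for Hsp90aa1, -0.62 for Dnaja1, -0.33 for Hspa8, -0.44 for Hsph1 and 0.95 for Hspe1. In CFA against con/ko libraries coded F, which match CFA in Xist, Hsph1 lost its call, as given above. Hsp90aa1, Dnaja1, Hspa8 and Hspe1 kept theirs against those libraries. Against LDRG, con/ko libraries had less of the sensory neuron markers, whose sum was 7709 to 9420 CPM in con/ko, 9676 to 11447 CPM in CFA and 11210 to 12739 CPM in LDRG libraries, with 3 of 5 called lower in con/ko than in LDRG and a median log2 difference of -0.43. Red cell markers summed to 1588 to 4317 CPM in con/ko, 207 to 620.2 CPM in CFA and 33.7 to 53.8 CPM in LDRG libraries. Neutrophil markers summed to 74.7 to 1133 CPM in con/ko, 20.6 to 65.3 CPM in CFA and 0.694 to 2.85 CPM in LDRG libraries, where 1 of 3 was at 0 in each genotype. Fibroblast markers summed to 1198 to 1802 CPM in con/ko, 814 to 1166 CPM in CFA and 485 to 629 CPM in LDRG libraries, and Schwann cell markers to 5065 to 11839, 3478 to 5324 and 3928 to 5580 CPM in the same order. Skeletal muscle markers summed to 372 to 773 CPM in flox con/ko libraries and 2.57 to 11.1 CPM in cKO con/ko libraries, without overlap. They summed to 1.19 to 88.0 CPM in CFA and 2.07 to 612 CPM in LDRG libraries. The part of all these cells in the chaperone values was not tested.

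Adding the named copies moved the values of Hspd1 and Hspb1. Hspd1-ps3 had 200.5 to 225 CPM in con/ko, 267 to 319 CPM in CFA and 295 to 324 CPM in LDRG libraries, with con/ko below both others in every library, whereas the Hspd1 row overlapped in all 3 sets. Its log2 difference, con/ko minus LDRG, was -0.53 (SE 0.03, edgeR adjusted p = 3.76e-09), close to those of Hsp90aa1 and Dnaja1. With Hspd1 and Hspd1-ps3 summed, con/ko was lower than LDRG by -0.41 (SE 0.04, adjusted p = 2.19e-07), and CFA was higher than con/ko by 0.32 (SE 0.04, adjusted p = 1.53e-06), where Hspd1 alone gave -0.08 (adjusted p = 0.338).

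For Hspb1, the sum with Hsp25-ps1 was 90.3 to 126 CPM in CFA, 108 to 171 CPM in con/ko and 135 to 155 CPM in LDRG libraries. It was called lower in flox CFA than in flox LDRG ganglia, at -0.36 (SE 0.09, edgeR adjusted p = 0.0300). It was also lower in CFA than in con/ko, at -0.25 (SE 0.07, adjusted p = 0.00828). The sum left out Gm9817 and was fitted under 1 setting only. The Hspb1 row alone passed neither, at -0.25 (adjusted p = 0.162) and -0.17 (adjusted p = 0.105). Over the alternatives for Hspb1, of which the sum is 1, adjusted p ran from 0.0300 to 0.431 in the first contrast (16 alternatives). In the second it ran from 0.00828 to 0.878 (26 alternatives). The Hspb1 row passed the second in 4 alternatives besides the sum, with genes at a mean of at least 5 CPM (adjusted p = 0.0437), without replicate 7 of cKO con/ko (0.0477), against con/ko libraries coded F (0.0132) and within cKO (0.0418). No genotype difference of either sum passed (adjusted p of 0.703 or more).

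**Figure D4:**
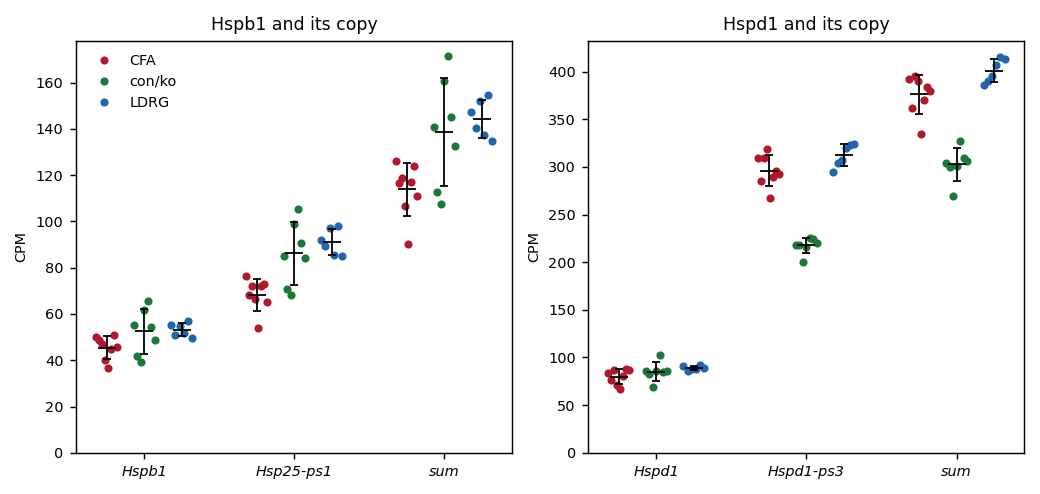
CPM of Hspb1 and Hspd1, of the named copy of each and of their sum (vertical axes, from 0) in the 8 CFA (red), 7 con/ko (green) and 6 LDRG (blue) libraries, with means (long bars) and SD (error bars). The copies exceed their parents in every set, and the con/ko libraries stand apart in Hspd1-ps3 (200.5 to 225 CPM) but not in Hspd1.

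Within groups, some members deviated together. Deviations of log2(CPM + 0.5) from the group mean over the 21 libraries correlated at r = 0.96 between Hspa1a and Dnajb1, 0.94 between Hspa1b and Dnajb1, and 0.92 between Hspa1a and Hspa1b, the inducible Hsp70 genes and an Hsp40 with no read-length stretch in common with them. Hspa1a and Hspa1b do share such stretches, and the part of these in their r was not tested. Dnaja1 and Hsp90aa1 had r = 0.85, Hspb1 and Hspd1 0.79, and Hsph1 and Hspb1 0.77. Hspe1 reached at most 0.68, with Hspb1. Hspa8 had r = -0.34 with Hsp90aa1 and -0.24 with Dnaja1 within groups, but 0.75 and 0.63 over the same libraries without centring on the group means. Preparation, depth and cell makeup can differ between libraries of a group. Their part in these values was not tested, and the values are given with no p. In the con/ko set the members' mean standardized deviation was highest in the 3 libraries coded FC, at 1.65 in replicate 5 and 0.39 in replicate 4 of cKO and 0.99 in replicate 4 of flox. It was lowest in those coded ML, at -1.41 in replicate 7 of cKO and -0.92 in replicate 6 of flox, and the meaning of the code letters is not given in the labels.

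**Figure D5:**
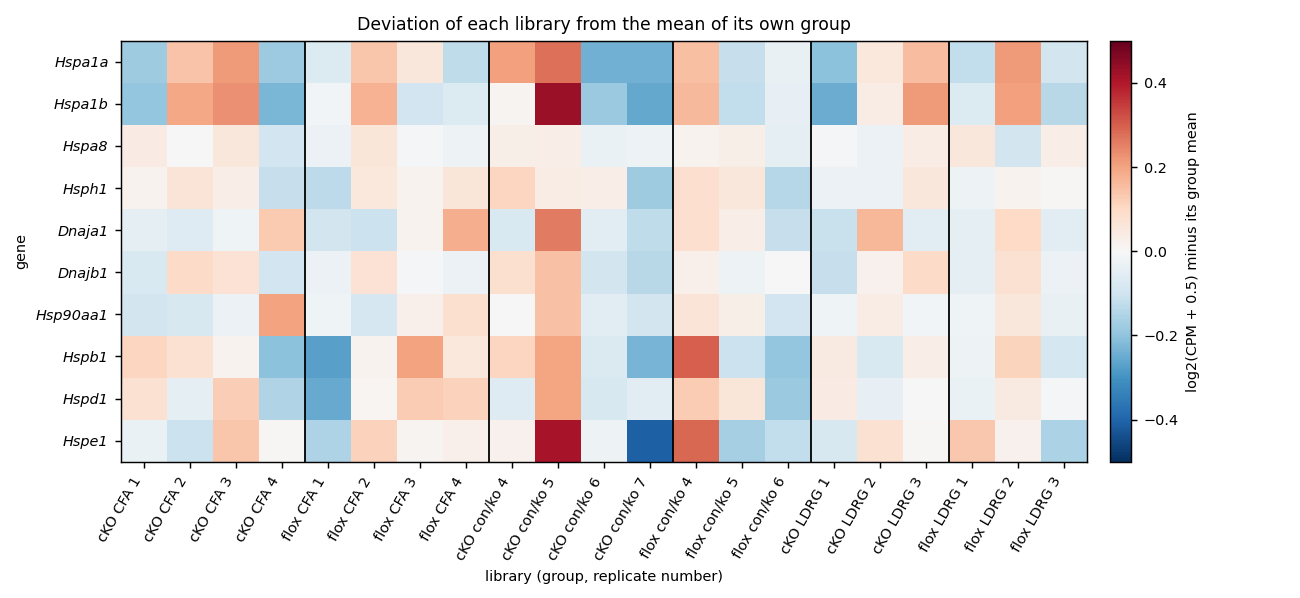
Deviation of log2(CPM + 0.5) from the mean of the library's own group (colour) for the 10 genes (rows) in the 21 libraries (columns, split by group with black lines). Replicate 5 of cKO con/ko is above its group mean in all 10 genes and replicate 7 below it in all 10, while Hspa1a, Hspa1b and Dnajb1 have similar colours in most libraries.

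The genes whose within-group deviations were most like the members' mean profile, among 11762 genes, were Fkbp2 (r = 0.914), Fndc4 (0.914), Ndufa5 (0.902), S100b (0.901), Hsbp1 (0.900), Pcyox1l (0.896), Pbdc1 (0.894) and Jagn1 (0.894), each over 21 libraries. Hsbp1 encodes the heat shock factor binding protein. These are the highest of all values ranked. The profile ran from -1.41 to 1.65 in con/ko libraries, where it was highest in those coded FC and lowest in those coded ML. The part of sex, code and cell makeup in this list was not tested.

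The rest of the chaperone network was counted by list, to be read against all genes tested, of which 25.7% were called higher and 23% lower in con/ko than in LDRG ganglia and 24.1% higher and 28% lower in CFA than in con/ko ganglia. In the genotype comparisons, untreated and CFA, no gene of any list passed. Among regulators, Hsf1, the main heat shock factor, was higher in con/ko than in LDRG ganglia (log2 difference 0.21, SE 0.06, edgeR adjusted p = 0.0100), and so was Hsf4 (0.27), while Hsf2 was lower (-0.38). In CFA against con/ko, Hsf1 (-0.43), Hsf4 (-0.29) and Hsbp1 (-0.26) were lower and Hsf2 (0.41) was higher. Hsbp1 was also lower in flox CFA than in flox LDRG ganglia (-0.22, adjusted p = 0.0449).

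Other cytosolic Hsp40 genes were lower in con/ko than in LDRG ganglia for 7 of 10 and higher for 0, with a median log2 difference of -0.20 against 0.02 over all genes. Dnajc6, the auxilin that uncoats clathrin vesicles with Hsc70, was at -0.39, Dnajb4 at -0.28, Dnajc5, the synaptic vesicle cysteine string protein, at -0.20 and Dnaja2 at -0.20. In CFA against con/ko 5 of the 10 were higher, at 0.50 for Dnajc6 and 0.32 for Dnajb4. Other Hsp70 and Hsp110 genes were lower in con/ko than in LDRG ganglia for 4 of 8, including Hspa12a (-0.39), Hspa4l (-0.26) and Hspa4 (-0.21), and higher for 1, Hspa2 (0.16). The cytosolic chaperonin, a ring that folds actin and tubulin, was lower for 5 of 8 subunits (Cct8 -0.28 and Cct6a -0.22) and higher for 0.

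Hsp90 partners were lower in con/ko than in LDRG ganglia for 5 of 15 and higher for 1, with the ATPase activator homologue Ahsa2 at -0.29, Chordc1 at -0.24 and Stip1, which links Hsp70 to Hsp90, at -0.15, and the kinase co-chaperone Cdc37 at 0.15. Among Hsp70 exchange and binding partners, 3 of 7 were lower, Bag3 (-0.50), Bag4 (-0.29) and Bag2 (-0.24), and 1 was higher, Hspbp1 (0.26). Other small heat shock proteins were higher for 3 of 6, with Hspb7 at 1.43, Hspb2 at 0.92 and Cryab, the alpha-B crystallin that glia and muscle also express, at 0.73, and Hspb8 was lower at -0.13. Hspb7 and Hspb2 had few counts, with means of 2.39 and 2.60 CPM in con/ko and 0.648 and 1.39 CPM in LDRG libraries. Hspb7 ranged from 0.392 to 7.95 CPM within con/ko. Other mitochondrial chaperones and proteases were higher for 3 of 9 (Hscb 0.59, Clpp 0.38 and Lonp1 0.20) and lower for 0. Of 12 endoplasmic reticulum chaperones, 2 were higher (Sdf2l1 0.60 and Pdia6 0.50) and 2 lower (Dnajb9 -0.56 and Canx -0.18). These lists are short and calls were common over all genes, so nothing particular to them is read from the counts.

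In CFA against LDRG the network moved little. Of the chaperone lists in flox ganglia, Bag2 was lower (-0.36, adjusted p = 0.0261) beside Hsbp1, and no other gene passed. In cKO ganglia Hspa4 (0.18), the endoplasmic reticulum Hsp70 Hspa5 (0.25) and the lectin chaperone Canx (0.20) were higher in CFA, and Zfand2a (-0.21), a heat-induced proteasome adaptor, was lower. Lists of other stress responses moved beside them. In flox ganglia 4 of 9 immediate early genes were lower in CFA (Atf3 -2.10, Egr1 -0.80, Jun -0.70 and Junb -0.51) and 4 of 6 glucocorticoid response genes were lower (among them Zbtb16 -0.73 and Sgk1 -0.50), with 0 higher in either list, against 3.05% of all genes lower. In cKO ganglia 0 of 9 and 1 of 6 were lower, against 0.909% of all genes, and edgeR's interaction test called the difference between genotypes for no gene. In con/ko against LDRG ganglia, 4 of 6 glucocorticoid response genes were higher (Mt1 1.42, Mt2 1.33, Sgk1 1.03 and Tsc22d3 0.22), and 5 of 11 clock genes were higher, among them Nr1d1 (0.92) and Per1 (0.82), and 1, Cry1 (-0.24), was lower. The cold-inducible Rbm3 was lower in con/ko than in LDRG ganglia (-0.36) and higher in CFA than in con/ko (0.95), where Cirbp was lower (-0.58). Of 7 heat-induced genes outside the chaperone families, in con/ko against LDRG, 3 were higher (among them Serpinh1 0.96 and Ier5 0.89) and 2 were lower (Zfand2a -0.33 and Sqstm1 -0.21). In CFA against con/ko, 6 of 6 glucocorticoid response genes and 5 of 9 immediate early genes were lower, and 3 of 8 chaperonin subunits were higher. The part of these responses in the chaperone values was not tested.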

How the data were processed

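Libraries were made from oligo(dT)-selected ganglion RNA and sequenced from both ends for 150 bases, per the labels' protocols. The authors deposited unnormalized gene counts, with 14 libraries (CFA and LDRG) in 1 table and 7 (con/ko) in the other. fastp 0.23.2, BWA 2.2.1, SAMtools 1.14, DESeq2 1.40.2 and mm10 are named in the submitters' processing notes. Members, lists and tests were chosen with earlier results of these data known.

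Tests were run with edgeR 4.0.16 under R 4.3.3 (low-count filter filterByExpr, minimum count 10 and total 15, TMM scaling, quasi-likelihood tests, Benjamini-Hochberg adjustment over all genes tested, threshold 0.05). CPM are counts over TMM-adjusted library sizes of the 21 libraries. The genotype contrast used 13 untreated or 8 CFA libraries, CFA against LDRG and the interaction used 14, and contrasts with con/ko used 21, averaged over genotypes. Per list, up to 4 genes with the smallest p are named; Hspa2, Cry1 and the copies were named after their values were seen. One related gene is not reported here. DESeq2 1.42.0 and the other alternatives were run on the same counts, and the tests were checked on simulated data. Within groups, all 27 library pairs differed beyond sampling noise (chi-square per degree of freedom 26.9 to 150).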

Additional observations from a re-analysis of the deposited data

Results flagged for a closer look

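Within the 3 groups of 4 libraries, 1 library stood far from the other 3 for 2 of 30 gene and group combinations, where about 1 in 20 is flagged by chance. Both were replicate 5 of cKO con/ko, one of the libraries coded FC. Dnaja1 had 237 CPM there, against 191 CPM in the next highest cKO con/ko library, and Hspd1 had 102 CPM, against 86.1 CPM. Its log2 deviation from the group mean was above 0 for all 10 genes.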

How the results depend on the processing

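Genotype calls over all genes depended on the tool and the libraries. In untreated ganglia 1 gene was called, against 39 with DESeq2, 5 with all 21 libraries in the fit, 3 in the LDRG set alone, 40 in the con/ko set alone, 2 with the code letters as terms, and 1 to 44 with each library left out in turn, the highest without cKO LDRG replicate 1. In CFA ganglia 0 were called, against 18 with DESeq2 (1 member) and 0 to 2 with a library left out. Flox CFA against LDRG had 1133 calls and 1 member, against 1928 (2 members) with DESeq2, 633 with all 21 libraries and 436 (0 members) with the compared groups alone. Leaving out a library gave 462 to 1380 calls and 0 to 2 members, the lowest without flox LDRG replicate 2. In cKO the 433 calls were 1292 with DESeq2, 211 with all 21 libraries and 61 to 424 with a library left out, the lowest without cKO LDRG replicate 1. The interaction had 0 calls, 25 with DESeq2 and 0 to 1 with a library left out. CFA against con/ko had 8812 calls, and 5826 in flox only. No member changed its call in the untreated genotype contrast, in cKO CFA against LDRG or in the interaction under any alternative run.

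With the replicate numbers of the titles as a replicate block, flox CFA against LDRG had 738 calls and 2 members (Dnaja1 was added), and cKO CFA against LDRG had 217. Deviations of same-numbered libraries correlated weakly, at -0.05 to 0.25 over 1000 genes. All pairs of cKO CFA with cKO LDRG were above 0 (0.14, 0.02 and 0.12), and pairs of the other contrasts were mixed in sign. The numbers were not taken as pairs. No paired analysis was possible for the contrasts with con/ko because those groups share fewer than 2 replicate numbers with the others.

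Summing 2 members with their copies was chosen after the data were seen. It turned Hspd1 in CFA against con/ko to 0.32 (log2), from -0.08, where the copy holds most of the summed counts, and gave 2 members in flox CFA against LDRG (Hspb1 was added). Of the values of single genes with a library left out, 764 were as before in being called or not, 5 gained a call and 1 lost it. Under the other alternatives 642 were as before, 15 gained a call, 4 lost it and 1 reversed its sign with a call. Sign changes between fits without a call were not counted. Hspa1a in flox CFA against LDRG, for example, ran from -0.11 to 0.08 (log2) with a library left out. Hspe1 had the fewest counts of the 10 genes, and library pairs of a group differed beyond sampling noise, so the limit of depth was not tested apart from the spread between libraries. Neither the counting method nor the animals behind each library are given in the sources used here.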
